A study of Mus musculus with 16 samples.

Results

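Moxd1, Fibin, Cyb5r1 and Rap1gap2 are 4 protein-coding mouse genes of the 22322 measured in liver and white adipose tissue of diet-induced obese (DIO) mice given halofuginone. They were matched by symbol in both deposited tables, and all 4 were found. Moxd1, Fibin and Cyb5r1 were chosen by their liver log2 fold changes, among the largest rises, and Rap1gap2 by the difference of its change between liver and fat, in each case leaving out genes of the amino acid response. The liver changes of all 4 genes, their differences between tissues and the fat values of Rap1gap2 are therefore descriptions without a test.

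The vehicle group, labelled HFD, and the halofuginone group, labelled H100, each had 5 liver and 3 fat libraries of poly(A)-selected RNA. Halofuginone, an inhibitor of prolyl-tRNA synthetase, was injected intraperitoneally at 100 μg/kg every 2 days, and tissue was taken after 8 weeks. All groups came from obese mice, and no lean animals set a reference. Strain, sex, age, fat depot and whether each library came from a separate animal are not given in the sources used here, and p-values measure the spread between these libraries, which may be technical.

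Sequencing depth was 20309956 to 31980683 counts per liver library and 17070614 to 21387799 counts per fat library. Levels are CPM (counts divided by the TMM-scaled size of each library) or the authors' FPKM, which also divides by transcript length. Summed hepatocyte markers (6 genes) ran from 114070 to 125051 CPM in vehicle liver, and summed adipocyte markers (6 genes) from 5322 to 11342 CPM in vehicle fat, so both tissues carried their defining transcripts. In treated livers 1 to 5 the hepatocyte sum was 106119, 38875, 34666, 81646 and 71507 CPM, below the vehicle range in every treated liver. Of the 6 markers, 2 were called lower in liver and 0 higher (edgeR adjusted p under 0.05). The sum is weighted by Alb, the albumin gene. Alb alone held 7.84% to 9.66% of all counts in vehicle livers and 3.17% to 7.98% in treated livers. Treated liver 1 stood apart from the other treated livers at most of the genes described here, and results are given with and without it. In bulk tissue, fewer cells of a type and less RNA per cell cannot be told apart.

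The 4 genes have unrelated products. Moxd1 encodes a copper-dependent monooxygenase of the dopamine beta-hydroxylase family that resides in the endoplasmic reticulum and whose substrate is not established. Fibin encodes a secreted protein, named for its part in starting the pectoral fin bud of zebrafish, where it acts downstream of retinoic acid. Cyb5r1 encodes a membrane-bound NADH-cytochrome b5 reductase, a flavoenzyme that has been linked with the P450 reductase Por to peroxidation of membrane lipids. Rap1gap2 encodes a GTPase-activating protein that turns off the small GTPase Rap1, known best from platelets, where it binds the vesicle protein encoded by Sytl1.

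The stretches upstream of the start sites are shown to compare the members with Asns, whose product makes asparagine and whose promoter holds a well-known amino acid response element. The windows are 250 bases of the plus or minus strand, written 5′ to 3′ toward the start site, from the RefSeq table of build GRCm38.p6. The expression files use build mm39, so the coordinates apply to the sequences only. Capitals mark matches to any of 8 motifs. RefSeq gave 1 window for Moxd1, Fibin and Cyb5r1 and 4 for Rap1gap2, of which the one farthest upstream is shown.
Moxd1 (chr10:24223267-24223516, plus strand): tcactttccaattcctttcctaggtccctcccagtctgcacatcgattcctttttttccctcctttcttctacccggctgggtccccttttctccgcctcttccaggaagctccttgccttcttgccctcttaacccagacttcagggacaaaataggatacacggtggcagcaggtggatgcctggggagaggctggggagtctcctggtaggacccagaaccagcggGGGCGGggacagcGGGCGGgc
Fibin (chr2:110362994-110363243, minus strand): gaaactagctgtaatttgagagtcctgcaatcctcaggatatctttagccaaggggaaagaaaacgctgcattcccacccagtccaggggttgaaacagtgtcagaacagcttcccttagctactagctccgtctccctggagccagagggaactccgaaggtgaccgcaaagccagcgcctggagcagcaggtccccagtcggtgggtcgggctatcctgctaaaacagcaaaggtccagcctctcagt
Cyb5r1 (chr1:134405531-134405780, plus strand): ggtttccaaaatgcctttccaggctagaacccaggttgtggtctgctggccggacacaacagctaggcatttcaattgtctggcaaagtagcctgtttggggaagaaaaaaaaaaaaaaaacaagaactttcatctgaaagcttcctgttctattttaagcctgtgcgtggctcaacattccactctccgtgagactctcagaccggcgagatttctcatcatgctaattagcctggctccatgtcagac
Rap1gap2 (chr11:74610916-74611165, minus strand): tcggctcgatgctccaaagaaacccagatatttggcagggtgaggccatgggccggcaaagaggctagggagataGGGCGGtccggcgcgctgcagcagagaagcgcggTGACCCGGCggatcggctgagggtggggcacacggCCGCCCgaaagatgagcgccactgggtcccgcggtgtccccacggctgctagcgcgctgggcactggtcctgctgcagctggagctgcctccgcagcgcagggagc
Asns (chr6:7693210-7693459, minus strand): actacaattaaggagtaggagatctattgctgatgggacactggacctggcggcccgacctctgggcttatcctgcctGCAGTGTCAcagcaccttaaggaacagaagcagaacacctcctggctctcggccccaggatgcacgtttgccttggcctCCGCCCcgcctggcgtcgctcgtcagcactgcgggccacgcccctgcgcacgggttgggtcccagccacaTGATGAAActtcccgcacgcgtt
The searched windows also included the 50 bases after each start, 300 bases in all. The core of the amino acid response element, TGATGNAA on either strand, was present in 3.97% of all 32851 windows. It was found in the windows of Asns (TGATGAAA), Trib3 (TTACATCA) and Chac1 (TTGCATCA) and in none of the 7 windows of the 4 genes, nor in that of Ddit3. The GC box GGGCGG, present in 35.7% of all windows, occurred 3 times in the Moxd1 window and at least 1 time in each of the 4 Rap1gap2 windows. The antioxidant response core TGACNNNGC, present in 12.4% of all windows, occurred in 2 of the 4 Rap1gap2 windows and in that of Asns. A C/EBP site, TTGCNNAA, present in 10.8% of windows, occurred in 1 Rap1gap2 window. The other motifs were TATAAA (13.6% of windows), CACGTG (7.15%), TGACGTCA (1.79%) and the endoplasmic reticulum stress element 1 (0.119%), and none of these was found in a window of the 4 genes. The Fibin and Cyb5r1 windows held none of the 8 motifs. GC content was 61.7% in the Moxd1 window, 56.3% for Fibin, 45.7% for Cyb5r1 and 71.3% for the Rap1gap2 window shown, beside a median of 52.7% over all windows. These matches are descriptions of letters in short windows and show no binding. Elements outside the windows were not searched, which limits the absence of a match in Ddit3 and in the 4 genes alike.

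In vehicle liver the 4 genes ranged from barely detected to low. Per transcript length, Cyb5r1 was highest, with 2.22 ± 0.709 FPKM (SD, n = 5), at the 33.9th percentile of the genes tested. Fibin (0.124 ± 0.0541 FPKM, n = 5) and Rap1gap2 (0.114 ± 0.0456 FPKM, n = 5) followed, and these neighbours did not differ beyond their spread. Moxd1 was last with 0.0140 ± 0.00894 FPKM (SD, n = 5). In treated liver the order of mean FPKM was Cyb5r1 (32.6 ± 19.1), Moxd1 (12.7 ± 22.6), Fibin (5.48 ± 3.62) and Rap1gap2 (2.61 ± 1.80), each as SD with n = 5. The spreads of neighbours in that order overlapped. By the median of the treated livers Moxd1 was last, with 0.84 FPKM. The medians were 37.35 FPKM for Cyb5r1, 4.74 for Fibin and 3.53 for Rap1gap2. The mean of Moxd1 was driven by its highest library, at 52.5 FPKM.

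**Figure D1:**
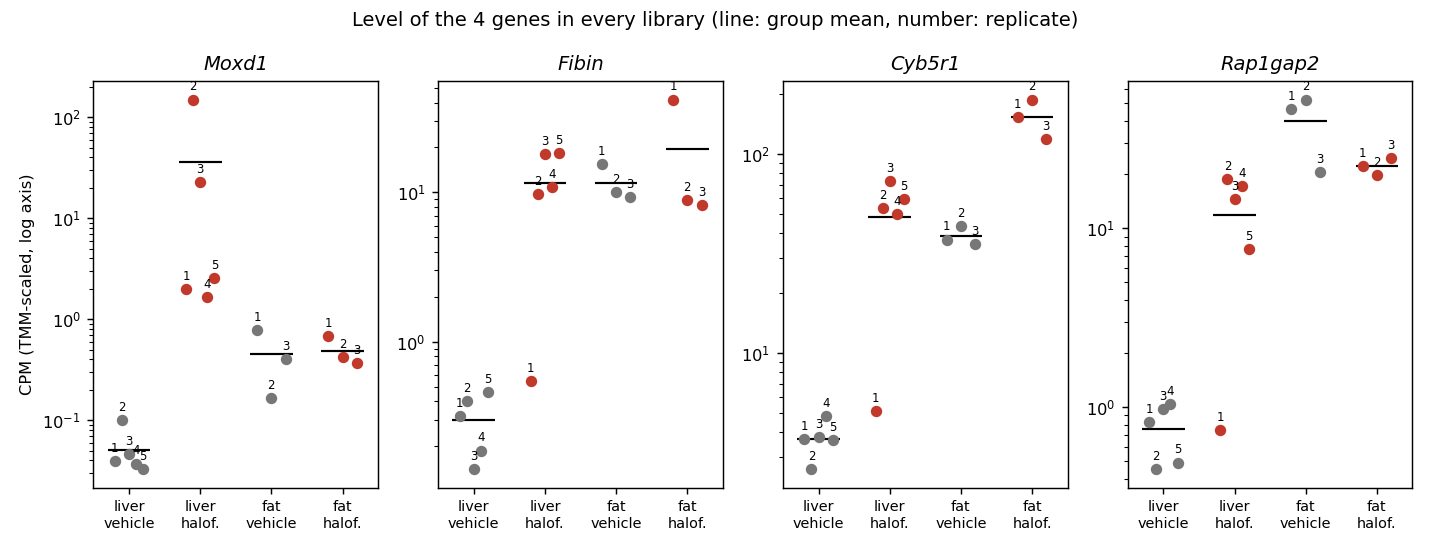
Level of Moxd1, Fibin, Cyb5r1 and Rap1gap2 in CPM (log axis) in each of the 16 libraries, with replicate numbers and a line at each group mean. Treated livers 2 to 5 lie above the vehicle livers for all 4 genes, while treated liver 1 lies close to them for Fibin, Cyb5r1 and Rap1gap2, and for Cyb5r1 alone all treated fat libraries lie above all vehicle fat libraries.

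For Moxd1 (ENSMUSG00000020000, chromosome 10, 12 exons), vehicle livers 1 to 5 held 1, 2, 1, 1 and 1 counts. Treated livers 1 to 5 held 40, 4010, 637, 43 and 68 counts, which are 1.99, 149, 22.8, 1.66 and 2.53 CPM. All 5 treated livers lay above all vehicle livers, but they spread over a 90.1-fold range, and treated liver 2 carried 83.8% of the summed CPM. Because every vehicle library was at or under 3 counts, the fold is a lower bound against a floor of 3 counts per library, with a mean of 0.124 CPM. The treated mean of 35.7 CPM was at least 288-fold higher, and without treated liver 2 the mean was 7.24 CPM and at least 58.5-fold higher. The bound was 16.0-fold for treated liver 1 alone and 13.4-fold for treated liver 4, the lowest, so that every treated liver passed the floor by more than 10-fold. The 40 counts of treated liver 1 have an exact Poisson 95% interval of 28.6 to 54.5, which covers counting error only, as do the floors.

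Fibin (ENSMUSG00000074971, chromosome 2, 1 exon) had 0.317, 0.401, 0.140, 0.187 and 0.459 CPM in vehicle livers 1 to 5. In treated livers 1 to 5 it had 0.546, 9.76, 18.02, 10.8 and 18.3 CPM. The groups did not overlap, although treated liver 1 exceeded the highest vehicle liver by only 1.19-fold. The fitted log2 fold change was 5.22 (SE 0.76) and 5.50 without treated liver 1. The treated mean was 38.3-fold the vehicle mean with all treated livers and 47.4-fold with livers 2 to 5, which lay within 1.88-fold of each other.

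Cyb5r1 (ENSMUSG00000026456, chromosome 1, 9 exons) had 3.68, 2.60, 3.77, 4.81 and 3.64 CPM in vehicle livers 1 to 5 and 5.11, 53.3, 72.9, 50.02 and 59.6 CPM in treated livers 1 to 5. Treated liver 1 was 1.06-fold above the highest vehicle liver, and the other treated livers were far above it. The fitted log2 fold change was 3.70 (SE 0.53), and 3.96 without treated liver 1. Treated livers 2 to 5 were closer together for Cyb5r1 than for the other 3 genes, with the highest 1.46-fold over the lowest. Per transcript length Cyb5r1 moved from the 33.9th to the 87.0th percentile of the genes tested.

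Rap1gap2 (ENSMUSG00000038807, chromosome 11, 25 exons) had 0.831, 0.451, 0.978, 1.05 and 0.491 CPM in vehicle livers 1 to 5. Treated livers 1 to 5 had 0.745, 18.8, 14.6, 17.3 and 7.70 CPM. Treated liver 1 fell inside the vehicle range, and the other 4 treated livers lay above it. The fitted log2 fold change was 3.96 (SE 0.66), and 4.23 without treated liver 1, where the mean was 19.2-fold over vehicle.

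In liver, 3 of the 4 genes had no overlap between the arms, beside 5.13% of all 12311 genes tested that were higher without overlap. All 4 were among the genes called higher, beside 12.7% of all genes tested. These values chose the members, and nothing is read from either count. All 4 passed the filter on low counts in liver, which asked for about 0.394 CPM in 5 libraries. Moxd1 and Fibin passed it only through their treated livers, since 0 and 1 of their vehicle livers reached that level. In fat, 3 of 4 passed, and Moxd1 was too low.

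The working description of these genes as switched on held literally for Moxd1. At or under 3 counts in every vehicle liver and over 3 counts in every treated liver were 4 genes of the tables, Moxd1, Lrrc8e, Pgpep1l and Slc13a2, and the means of the last 3 in treated liver were 0.263, 0.234 and 0.434 CPM. Leaving treated liver 1 aside, 28 genes met that rule with treated livers 2 to 5, and 3 of these reached 1 CPM in each of them, Moxd1, Cox6a2 and Gm34653. Cox6a2 and Gm34653 were named after their values were seen. Fibin was over 3 counts in 4 of 5 vehicle livers, and Cyb5r1 and Rap1gap2 in all 5, so for them the change was a rise from a measured level.

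Among the largest liver rises at 5 CPM or more without overlap, Moxd1 had the largest log2 fold change (9.38, SE 1.89), followed by Asns (6.80), Trib3 (5.78), Fibin and Cyb5r1. Lepr, the leptin receptor gene, came just after them at 3.15. Among genes called for a difference between tissues with at least 5 CPM in both, the most negative fat minus liver values were ranked, and Rap1gap2 stood first at -4.83 (SE 0.90), followed by Asns at -4.70 and Psat1 at -4.58, and Gys2, the liver glycogen synthase gene, was just outside at -3.42.

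**Figure D2:**
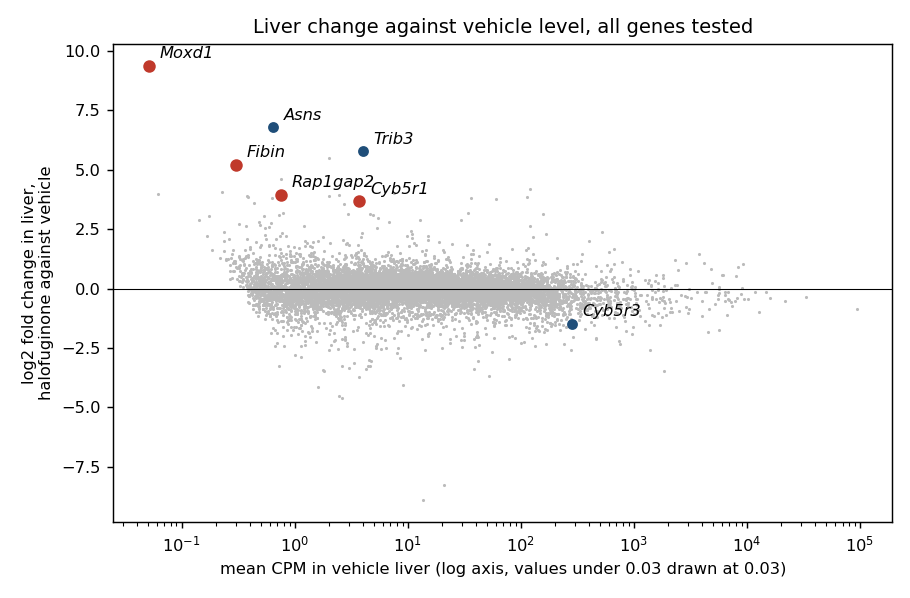
Log2 fold change in liver against mean CPM in vehicle liver (log axis) for all genes tested, with Moxd1, Fibin, Cyb5r1 and Rap1gap2 in red and Asns, Trib3 and Cyb5r3 in blue. Moxd1 is lowest in vehicle liver and has the largest rise at 9.38, and Cyb5r3 is the only marked gene below 0, at -1.48.

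The 4 genes were not even across the treated livers. In log2 CPM relative to the vehicle mean, treated liver 1 was at 4.00 for Moxd1, 0.80 for Fibin, 0.48 for Cyb5r1 and 0.04 for Rap1gap2, so that Moxd1 stood apart from the other 3. Asns was also raised there, with 6.70 CPM against 0.317 to 1.35 CPM in vehicle livers. Ddit3, a stress transcription factor gene, had 3.72 CPM in treated liver 1, below the 4.67 to 11.97 CPM of vehicle livers. Chac1, encoding a glutathione-degrading enzyme, had 1.29 CPM there, below the vehicle range of 2.26 to 4.66 CPM. Moxd1 was highest in treated livers 2 and 3, which also had the lowest hepatocyte marker sums, whereas Fibin was highest in livers 3 and 5. The part of cell composition in these differences was not tested.

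**Figure D3:**
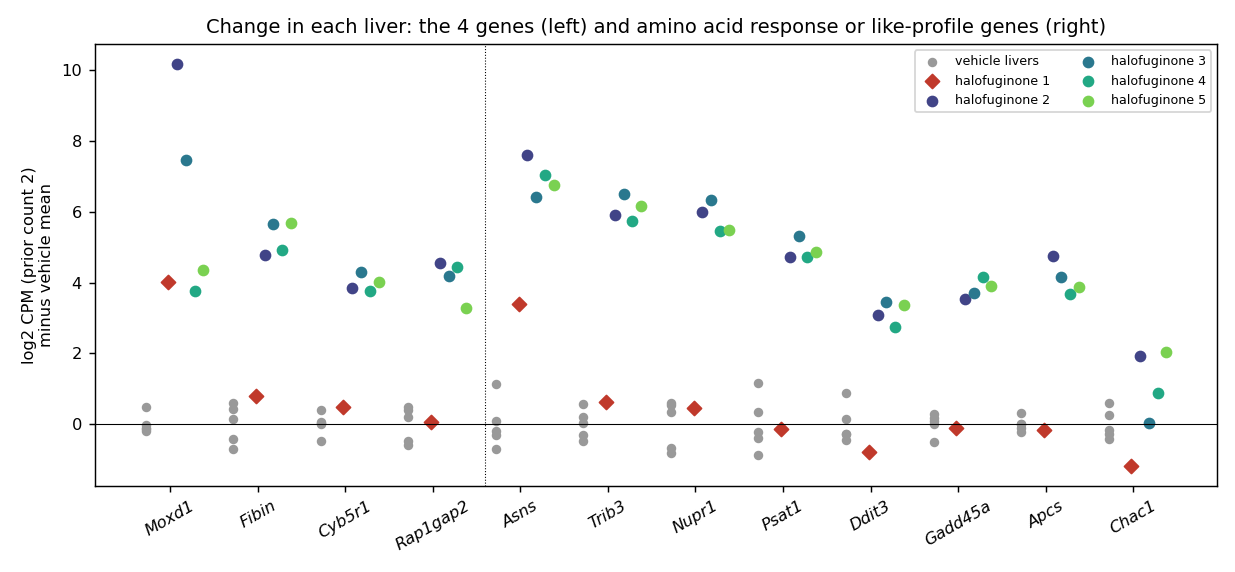
Log2 CPM (prior count 2) of each liver library minus the vehicle mean, for the 4 genes at the left and for amino acid response or like-profile genes at the right. Treated liver 1 (red diamond) lies at the vehicle level for most genes and stands above all vehicle livers by a wide margin for Moxd1 and Asns.

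Likeness of liver profiles was measured as the root mean square difference in log2 CPM relative to the vehicle mean over the 10 livers, where smaller is more alike. For Moxd1 the nearest genes were Asns (1.60), Nupr1 (1.93) and Trib3 (1.99), all at a large distance. Fibin lay nearest to Trib3 (0.79), a pseudokinase gene of the stress response, then to Psat1 (0.86), an enzyme gene of serine synthesis, and Nupr1 (0.88), a stress-induced chromatin regulator gene. Cyb5r1 lay nearest to Gadd45a (0.41), a growth arrest gene, then to Apcs (0.44), which encodes serum amyloid P, and to Rap1gap2 (0.46). The nearest genes of Rap1gap2 were Cyb5r1 (0.46), Apcs (0.49) and Gadd45a (0.50). All these profiles share the same 10 libraries and the low values of treated liver 1, and likeness is a description.

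In vehicle fat all 4 genes were above their vehicle liver level. The mean CPM in fat was at least 3.63-fold that in liver for Moxd1, against the floor of 3 counts per liver library, 38.6-fold for Fibin, 10.4-fold for Cyb5r1 and 52.5-fold for Rap1gap2. Libraries were scaled within each tissue, so these folds set levels from separate scalings side by side. In the treated arm the fat to liver fold was 0.0137 for Moxd1, 1.71 for Fibin, 3.19 for Cyb5r1 and 1.88 for Rap1gap2. The fold for Moxd1 was 0.0675 without treated liver 2. The fold for Fibin turned to 0.743 without treated fat library 1, so the order of its treated means rests on that library. The treated liver mean was below the fat mean for Cyb5r1 and Rap1gap2 and above it for Moxd1.

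Of the 3 genes whose fat values were not used to choose them, Cyb5r1 was the one whose fat libraries separated. Vehicle fat libraries 1 to 3 had 37.2, 43.3 and 35.5 CPM and treated ones 154, 188 and 119 CPM. All 3 treated libraries were above all vehicle libraries, as were 10.2% of the 14030 genes tested in fat. The log2 fold change was 1.99 (SE 0.21), a 3.98-fold difference of means. Ranked by p it was number 3 of all genes tested in fat, but its adjusted p by the quasi-likelihood test of edgeR was 0.0954 (Benjamini-Hochberg), and the gene was not called. No gene was called in fat (0%), where 13.4% had an unadjusted p under 0.05, and DESeq2 called 671 genes. For Cyb5r1 DESeq2 gave an adjusted p of 3.65e-14 and limma on log2 FPKM gave 0.0465 with a pseudocount of 1, while the other alternatives gave 0.0528 to 0.431. The two-sided exact permutation test of mean CPM gave p = 0.1, the smallest that 3 against 3 allow, and 0.3 after adjustment over 3 genes.

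Fibin in fat showed no such separation. Vehicle fat libraries had 15.5, 10.03 and 9.28 CPM, and treated ones 41.9, 8.87 and 8.20 CPM. Of the treated libraries, 1 was above the vehicle range and the other 2 were below it. The log2 fold change of 0.76 (SE 0.65) had an adjusted p of 0.668 by edgeR, and the exact permutation test gave p = 1. Without treated fat library 1 the sign turned, to -0.44.

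Moxd1 in fat was close to the floor of 0.139 to 0.1798 CPM, with 0.779, 0.166 and 0.404 CPM in vehicle and 0.679, 0.418 and 0.368 CPM in treated libraries. The groups overlapped, and the exact permutation test gave p = 0.9. Rap1gap2, whose fat values helped to choose it, had 46.7, 52.4 and 20.5 CPM in vehicle and 22.2, 19.8 and 24.8 CPM in treated fat. The treated values lay near the lowest vehicle library, and the log2 difference was -0.84.

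The fat minus liver difference of the log2 change was -9.32 (SE 3.06) for Moxd1 and -4.48 (SE 1.11) for Fibin. It was -1.74 (SE 0.69) for Cyb5r1 and -4.83 (SE 0.90) for Rap1gap2. The value of Moxd1 is imprecise, since the gene was near the floor in vehicle liver and in fat. Of the members, only Rap1gap2 was called for a difference, and this value chose it. Beside that, 0.949% of the 14853 genes tested in the joint fit of both tissues were called. The fat minus liver difference was smallest in size for Cyb5r1, the member that was also higher in treated fat.

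The relatives of Cyb5r1 moved less or the other way. Cyb5r3, encoding the main cytochrome b5 reductase of most tissues, had 267, 335, 226, 300.4 and 287 CPM in vehicle livers 1 to 5 and 203, 63.1, 68.6, 89.9 and 85.3 CPM in treated livers 1 to 5. It fell in liver by 1.48 on the log2 scale (SE 0.29, edgeR adjusted p = 0.00932), with all 5 treated livers below the vehicle range, as were 6.56% of all genes tested. In fat, Cyb5r3 had 321, 354 and 330.4 CPM in vehicle and 216, 160, and 204 CPM in treated libraries. All 3 treated fat libraries were below the vehicle range, as were 10.4% of the 14030 genes tested in fat. The log2 difference of Cyb5r3 in fat was -0.79 with SE 0.17, and the edgeR adjusted p was 0.165. For Cyb5r4 in liver the log2 value was 0.22 with SE 0.10 (edgeR adjusted p = 0.141).

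Opposite movements of both genes changed the balance of the reductases. The ratio of Cyb5r3 to Cyb5r1 in FPKM was 42.1 to 108 in vehicle livers, with a median of 51.1. In treated livers 1 to 5 it was 34.0, 0.816, 0.673, 1.36 and 1.03, so that both transcripts were at about the same level in 4 treated livers. In fat the ratio was 6.71 to 7.60 in vehicle and 0.714 to 1.44 in treated libraries. Vehicle and treated libraries did not overlap in either tissue. The liver ratio uses the values that chose Cyb5r1 and is given without a test.

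**Figure D4:**
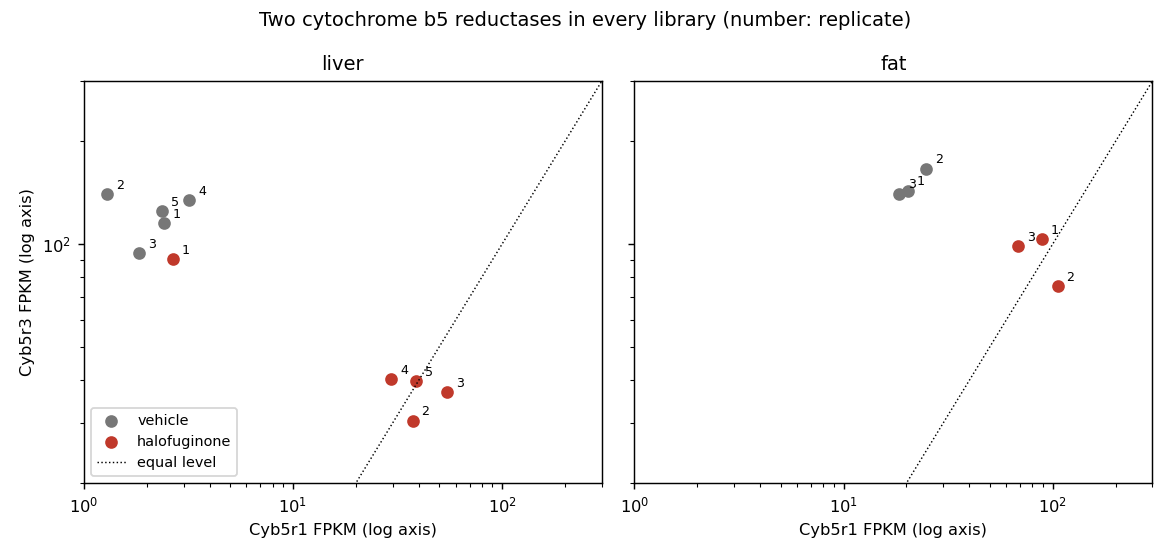
Cyb5r3 against Cyb5r1 in FPKM (both axes log) in each liver and fat library, with replicate numbers and a dotted line of equal level. Treated livers 2 to 5 and all treated fat libraries lie close to the dotted line, with ratios of 0.673 to 1.44, while vehicle libraries and treated liver 1 lie far above it.

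Around each member, lists of related genes were read against the 23.2% of genes called in liver, 12.7% higher and 10.5% lower. Outside the amino acid response, the shares called in the lists ran from 10.3% to 30%. The direction of so few calls is not read as a result. Of the 20 tested genes of the cytochrome b5 system, 2 rose and 4 fell, or 30% called. Their median log2 fold change was -0.41, beside 0.017 for all genes. Scd1, the stearoyl-CoA desaturase gene that takes electrons from cytochrome b5, fell by 1.74 (adjusted p = 0.0105), and Cyb5b, encoding the mitochondrial cytochrome b5, fell by 0.82 (adjusted p = 0.0168), both by edgeR. Of 18 tested genes of lipid peroxidation and ferroptosis, 2 rose and 3 fell, or 27.8% called, with a median of -0.26. Acsl4, which loads membranes with polyunsaturated fatty acids, rose by 1.54 (edgeR adjusted p = 0.0209), and Aifm2, a ferroptosis suppressor gene, fell by 0.71 (edgeR adjusted p = 0.00465). Slc3a2, the partner of the cystine transporter, rose by 1.06 (edgeR adjusted p = 0.00945). Tfrc, the transferrin receptor gene of iron uptake, fell by 1.05 (edgeR adjusted p = 0.0305), and Gclc, a glutathione synthesis gene, fell by 1.05 (edgeR adjusted p = 0.0418). The calls of Acsl4, Tfrc and Gclc held in 7, 4 and 1 of 10 fits that each left out a library, and those of Scd1, Cyb5b, Aifm2 and Slc3a2 in all 10.

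For Moxd1, the copper monooxygenase and catecholamine list had 0 rises and 3 falls among 10 tested genes. That is 30% called, with a median of -0.17. Pam, the peptide-amidating relative of Moxd1, fell by 0.45 (edgeR adjusted p = 0.0197), and it was not called when libraries were scaled by size alone (adjusted p = 0.0841). Maob, encoding a monoamine oxidase, fell by 1.31 (edgeR adjusted p = 0.0140). Dbh, another relative of Moxd1 by family, was at 0 counts in all 10 livers, which allows up to 0.0983 to 0.150 CPM. The copper transport list had 0 rises and 3 falls among 18 tested genes, or 16.7% called, with a median of -0.09. Its leading fall was Ccs, the copper chaperone gene of superoxide dismutase, at -0.86 (edgeR adjusted p = 0.0286), a call kept in 4 of the 10 fits.

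For Fibin, the retinoic acid and fin or limb bud list had 0 rises and 4 falls among 20 tested genes. That is 20% called, with a median of -0.14. Aldh1a1, a retinaldehyde dehydrogenase gene, fell by 1.54 (edgeR adjusted p = 0.0116), and Rdh10, a retinol dehydrogenase gene, fell by 0.78 (edgeR adjusted p = 0.00434), both called in all 10 fits that left out a library. For Rap1gap2, the Rap list had 3 rises and 0 falls among 29 tested genes, or 10.3% called, with a median of -0.02. Sipa1l1, another Rap GTPase-activating gene, rose by 0.44 (edgeR adjusted p = 0.0190), and Rapgef6, a Rap activator gene, rose by 0.33 (edgeR adjusted p = 0.0153). The third was Sytl1, which was under 5 CPM, was named after its values were seen and kept its call in 1 of the 10 fits. Rap1gap itself had a log2 fold change of -0.02 (edgeR adjusted p = 0.955).

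The amino acid response list, the comparator, had 21 rises and 2 falls among 35 tested liver genes, with a median of 1.04. In fat 0 genes of any of these lists were called by edgeR, and 24 of the 39 tested genes of the amino acid response had an unadjusted p under 0.05. Without treated liver 1, calls in liver increased to 12 in the cytochrome b5 list and 11 in the lipid peroxidation list. They increased to 8 in each of the Rap, retinoic acid and copper transport lists, and to 5 in the copper monooxygenase list. All genes called went from 2850 to 5312, so calls rose widely, and the list increases are not read apart from this. Scaling by library size alone moved the median change of all genes up by 0.16, and with it the medians of the copper transport (0.08), Rap (0.13) and retinoic acid (0.01) lists turned positive. Under that scaling the retinoic acid list had 2 rises and 2 falls, the copper transport list 1 and 1, the copper monooxygenase list 1 and 2, and the cytochrome b5 and lipid peroxidation lists 3 and 3 each.

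**Figure D5:**
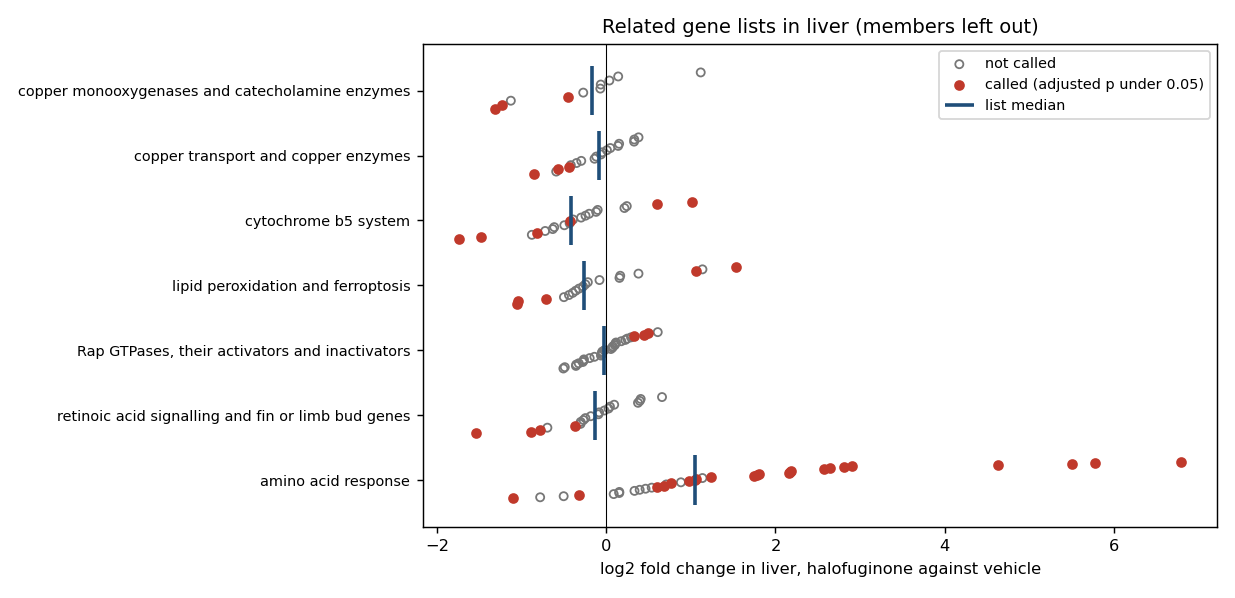
Log2 fold change in liver of every tested gene of the 7 related lists, with called genes filled, other genes open and a bar at each list median. The amino acid response list has a median of 1.04, and the other 6 medians lie between -0.41 and -0.02.

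Neighbouring genes on the chromosome were looked up in the RefSeq order after the members' values were known. Beside Moxd1, Stx7 had a log2 fold change of -0.05 in liver (edgeR adjusted p = 0.759), and Ccn2, a matricellular protein gene, fell by 1.08 (edgeR adjusted p = 0.00564). Bbox1, beside Fibin, had -0.63 (edgeR adjusted p = 0.0915), and Adipor1, beside Cyb5r1, had 0.12 (edgeR adjusted p = 0.279). The other neighbour of Fibin, Slc5a12, was not tested, and that of Cyb5r1, Mgat4f, was not among the measured genes. Neither neighbour of Rap1gap2 was tested, and no annotated gene overlapped any of the 4 members in GENCODE M21.

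Markers of other cell types were summed in the same livers. Of the 6 adipocyte markers, Adipoq, Lep, Plin1 and Retn were at or under the floor in every library, and the summed adipocyte markers ran from 46.9 to 111 CPM in vehicle and from 18.3 to 65.2 CPM in treated livers. Platelet markers, which bear on Rap1gap2, summed to 1.35 to 2.35 CPM in vehicle and 1.58 to 2.68 CPM in treated livers, with 3 of 6 at or under the floor. Schwann cell and neuron markers summed to at most 1.36 CPM in any liver. The mammary and skin epithelium markers summed to 371, 331, 292 and 405 CPM in treated livers 2 to 5, above the 121 to 232 CPM of vehicle livers. Treated liver 1 was below that range at 108 CPM. The order of treated livers 2 to 5 by this sum differed from that by Moxd1, Fibin, Cyb5r1 or Rap1gap2, a description without a test. Of these 5 markers, Krt18, a keratin gene that hepatocytes also express, was called higher at 0.98 (edgeR adjusted p = 0.0430). Krt10 was not called, at 0.13 (edgeR adjusted p = 0.762), and Krt14, Csn3 and Wap were at or under the floor in every liver. Endothelial markers summed to 258 to 290 CPM in vehicle livers, 306 CPM in treated liver 1 and 241 to 255 CPM in the other treated livers, with 2 of 6 called higher and 3 lower. Stellate cell markers summed to 141 to 165 CPM in vehicle and 99.2 to 162 CPM in treated livers, with 1 of 6 called lower. Fibroblast markers summed to 273 to 353 CPM in vehicle and 209.7 to 300.4 CPM in treated livers, with 2 of 6 called lower. Macrophage markers summed to 526 CPM in treated liver 1, above the vehicle range of 277 to 417 CPM, and 248.8 to 322 CPM in the others. Biliary markers summed to 11.3 CPM in treated liver 2, above the vehicle range of 6.41 to 8.20 CPM, and to 4.02 to 5.21 CPM in the other 4, below it. The part of these in the values of Moxd1, Fibin, Cyb5r1 and Rap1gap2 was not tested.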

How the data were processed

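The deposited tables, 1 per tissue, hold counts and FPKM for 22322 gene identifiers in 16 libraries. Per the labels' protocols, poly(A) RNA was fragmented and prepared with a NEBNext Ultra kit. The submitters' processing notes name fastp 0.18.0, Bowtie2 2.2.8, HISAT2, StringTie 1.3.1, RSEM and mm39, without roles. The deposited counts are whole numbers and may be rounded estimates. The authors' FPKM values were used as deposited. Strand of counting is not given in the sources used here. Symbols were matched for 22267 identifiers.

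The members and lists were chosen with earlier results of these data known. Separate fits per tissue used edgeR 4.0.16 (filterByExpr, TMM, glmQLFit, glmQLFTest, two-sided, Benjamini-Hochberg) in R 4.3.3, and genes were called at an adjusted p under 0.05. Fat minus liver was 1 fit of all 16 libraries. A standard error is the size of the log2 fold change over the root of its F statistic. The fits were tested on simulated data. Libraries of a group differed by more than sampling noise, and each counted as 1 replicate.

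Named list genes were up to 3 called genes per direction with at least 5 CPM and the largest change. Also named were family relatives, comparators from the amino acid response, the 3 genes most like each member and the first gene outside each ranking. Alternatives were DESeq2 1.42.0, limma 3.58.1 on log2 FPKM (pseudocount 1 or 0.1), other scalings and filters, 1 fit of all groups, the replicate number as a block and leaving out each library. Folds between tissues without 1 library were added after seeing the data. Permutation tests used scipy 1.17.1. Annotation came from GENCODE M21 and promoters from RefSeq, both on GRCm38. Protein sequences were not used here.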

Additional observations from a re-analysis of the deposited data

Results flagged for a closer look

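Among 23 groups of 5 livers examined, 3 had a library far from the rest. A rate of 1 in 20 groups, or 1.15, would hold by chance for independent groups of normally distributed values. Here the groups share the same livers, and CPM was used without a log. The treated liver values of Moxd1 also helped to choose that gene. Nothing is therefore read from 3 beside 1.15, and the libraries are given as descriptions. Moxd1 in treated liver 2 reached 149 CPM, where the next highest treated liver had 22.8 CPM. Cyb5r3 in treated liver 1 stayed at 203 CPM, where the next highest treated liver had 89.9 CPM. Asns in vehicle liver 2 had 1.35 CPM, where the next highest vehicle liver had 0.606 CPM.

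Of 29 list and family genes examined for a different drug effect in fat and liver, 3 differed by edgeR's interaction test (Benjamini-Hochberg over all genes). Beside these, 0.949% of the 14853 genes tested in the joint fit differed. The list genes were named for their liver calls, and the fat minus liver difference contains the liver change. Nothing is therefore read from this count or from the adjusted p-values given with it. Asns had a fat minus liver difference of -4.70 in log2 fold change (adjusted p = 0.0323), higher in 5 of 5 treated livers and in 3 of 3 treated fat libraries. Rdh10 differed by 0.91 (adjusted p = 0.0457), with 5 of 5 treated livers below the vehicle range. Shmt2, encoding a mitochondrial serine hydroxymethyltransferase, differed by 1.51 (adjusted p = 0.0331).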

How the results depend on the processing

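Every fitted liver change of the 4 genes kept its direction under all alternatives run. These liver values helped to choose the genes, so a reversal was unlikely from the start, and nothing is read from this. With each library left out in turn, Moxd1 ran from 7.08 to 9.69 on the log2 scale, lowest without treated liver 2. Liver calls ran from 1275 (without treated liver 3) to 5312 (without treated liver 1) around 2850. Scaling by library size alone gave 3627 liver calls, of which 76.9% were higher against 54.7%, and moved the median change of all genes by 0.16. In fat, calls went from 0 to 671 with DESeq2, 17 with limma on FPKM at a pseudocount of 1, 1 without a filter and 334 in 1 fit of all groups, and were 0 to 1 with a library left out. The fat change of Cyb5r1 was called at 2.00 with DESeq2 and at 1.98 with that limma fit. The fat change of Fibin reversed to -0.44 without treated fat library 1, in a range of -0.44 to 1.16. Differences between tissues numbered 141, 686 with DESeq2 and 34 to 1053 with a library left out. The replicate number as a block gave 1901 calls in liver, 0 in fat and 20 for the difference between tissues. Same-numbered libraries of the 2 arms correlated from -0.156 to 0.057 in liver and from -0.570 to 0.111 in fat. These values did not show pairing, but with 5 or 3 libraries per arm they cannot exclude it. Liver and fat libraries of the same number were not compared. The causes of the differences between alternatives were not tested. Depth limits Moxd1 in vehicle liver and in fat, where it lies near the floor of 3 counts.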
